A study of Mus musculus with 2 samples.

Results

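The growth hormone and IGF axis of the liver was described by 10 genes among the 45777 gene symbols of a liver RNA-sequencing table. The genes were taken by symbol as the receptor Ghr, the signal transducers Stat5a and Stat5b, the feedback inhibitor Socs2, the secreted hormone Igf1, its circulating partner Igfals, and the binding proteins Igfbp1, Igfbp2, Igfbp3 and Igfbp4. The rule used gene symbols and no measured value, but it was written when earlier results of these data were known. All 10 were in the table and all 10 passed the filter of at least 10 estimated counts in at least 1 library, as did 15857 genes in all.

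The 2 libraries came from livers of C57BL/6 mice (C57BL/6 N in the study's methods) that were 7 weeks old when a high-fat diet (HFD) began and were fed it for 18 weeks. At week 13 of the diet, 5 weeks before the end, an adeno-associated virus (AAV) was injected behind the eye, which carried GFP in the control (AAV-GFP) or the long noncoding RNA Wee1-AS (AAV-Wee1-AS). The study's methods give the AAV9 serotype and the CMV promoter, neither of which is specific to hepatocytes, for the AAV-Wee1-AS vector, and Wee1-AS itself was not analysed here. Each group was 1 library, and the estimated counts added up to 55466182 for the control and 48079335 for AAV-Wee1-AS. The comparison asked what overexpression of Wee1-AS changed in the HFD-fed liver, but it has no replicate check. No p-value is given, and the 95% intervals below cover the counting error of the 2 libraries only. Sex of the mice and pooling of animals are not given in the sources used here.

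Growth hormone from the pituitary binds GHR on hepatocytes, and the kinase JAK2 that rides on the receptor phosphorylates STAT5, which enters the nucleus and switches on Igf1, Igfals and Socs2. IGF1 then circulates in a complex with IGFBP3 and the acid-labile subunit encoded by Igfals, while SOCS2 dampens the receptor. Hepatic Igfbp1 is instead held down by insulin through the forkhead factor FOXO1, and the male or female timing of growth hormone pulses sets the sex-biased genes of the mouse liver through STAT5.

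The sequences in front of the start sites that the results turn on were read from the RefSeq promoter table of build GRCm38.p6. In it 9 of the 10 genes had 15 windows, and Socs2 had none. Igf1 had only the window before the start of variants 3 and 5, all of it annotated as exon. The start of Igf1 variants 1 and 4 was thus not searched, and no lack of motifs is read for Socs2 or Igf1. Bases that GENCODE annotates as exon were left off. Each is written 5′ to 3′ on the gene's strand, and capitals mark matches to the STAT motif TTCNNNGAA or to the forkhead motifs TGTTTAC or TGTTTTG or TATTTTG, searched on both strands in the 250 bases before each start. Ghr is shown because its 2 start sites took different shares of the counts in the 2 libraries. Igfbp1 is shown because it was the member with the lowest ratio. Igfals is shown because, among the 15 windows searched, only windows of this gene held the STAT motif.

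Ghr, start of variants 1 and 2, chr15:3583493-3583602, minus strand: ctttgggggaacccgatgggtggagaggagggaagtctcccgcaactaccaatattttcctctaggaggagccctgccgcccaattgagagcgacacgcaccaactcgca

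Ghr, start of variant 4, chr15:3581843-3582092, minus strand: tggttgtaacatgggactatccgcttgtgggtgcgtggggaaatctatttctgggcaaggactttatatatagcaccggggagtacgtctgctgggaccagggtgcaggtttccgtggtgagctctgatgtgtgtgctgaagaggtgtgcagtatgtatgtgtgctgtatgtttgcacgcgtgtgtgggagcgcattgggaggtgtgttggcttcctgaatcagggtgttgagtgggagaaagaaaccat

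Igfbp1, chr11:7197537-7197781, plus strand: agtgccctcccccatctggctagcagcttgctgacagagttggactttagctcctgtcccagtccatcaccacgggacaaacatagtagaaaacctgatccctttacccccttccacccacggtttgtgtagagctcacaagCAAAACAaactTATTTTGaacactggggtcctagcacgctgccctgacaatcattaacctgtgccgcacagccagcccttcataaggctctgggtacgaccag

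Igfals, site 236 bases before the start of variant 2: tctataatTTCTCAGAAaagaggct

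Igfals, site 58 bases before the start of variant 3: gccaggtgTTCCTAGAAgaggccct

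The STAT motif was found in 2 of the 15 member windows, both of Igfals, and in 7.02% of all 32851 windows of the table. A forkhead motif was found in 2 member windows, those of Igfbp1 and of Igfals variant 3, and in 11.9% of all windows. The Igfbp1 window held 2 such matches, to TGTTTTG and TATTTTG, between 108 and 91 bases before the start, with 4 bases between them. It is not shown that these 2 motifs were chosen without regard to Igfbp1. Nothing is therefore read from its match beside the share of all windows. The 2 Ghr windows held none of the STAT or forkhead motifs. They differed in composition, with 65.6% GC in front of variants 1 and 2 and 52% in front of variant 4 over the full 250 bases.

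The levels of the 10 genes per transcript length (TPM, in which every library has the same sum) stood in the same order in both libraries. Igfbp4 was the highest, at 1631 TPM with AAV-GFP and 1234 TPM with AAV-Wee1-AS. Ghr, Igfbp2 and Igfals came next in both libraries, at 156, 117 and 112 TPM with AAV-GFP and at 236, 115 and 99.7 TPM with AAV-Wee1-AS. Stat5a and Socs2 were the lowest of the 10, at 9.54 and 2.92 TPM with AAV-GFP and at 6.13 and 4.26 TPM with AAV-Wee1-AS. Between these lay Igf1, Igfbp1, Stat5b and Igfbp3 in falling order, with Igf1 close to Igfbp1 with AAV-GFP (42.4 and 36.6 TPM) and well above it with AAV-Wee1-AS (72.4 and 16.4 TPM). Neighbours such as Igfbp2 and Igfals, or Stat5b and Igfbp3 (21.9 and 21.2 TPM with AAV-GFP), cannot be told apart in this order, because the spread between mice is not known.

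**Figure D1:**
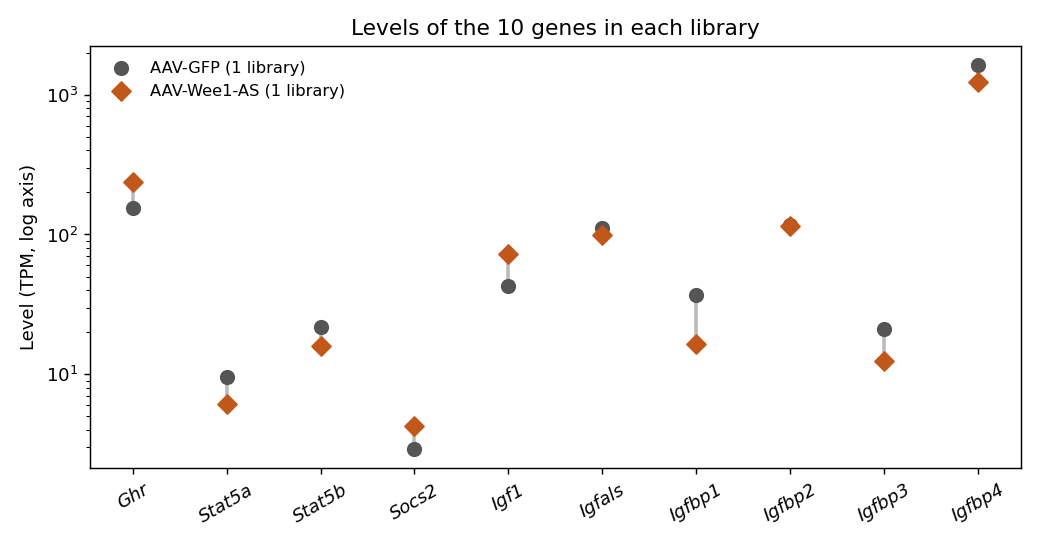
Levels of the 10 genes in TPM on a log axis, with 1 point per library (grey circles AAV-GFP, orange diamonds AAV-Wee1-AS) and no error bars because each group is 1 library. Ghr, Igf1 and Socs2 lie higher with AAV-Wee1-AS, Igfbp1 drops from 36.6 to 16.4 TPM, and the 2 points of Igfbp2 almost coincide.

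Ratios of the AAV-Wee1-AS to the AAV-GFP library were taken from the estimated counts, summed over the transcripts of each gene and scaled by TMM, and are given on the log2 scale. Ghr was the single member above 2-fold and Igfbp1 the single member below 0.5-fold, whereas 22.5% of all genes tested were above 2-fold and 8.43% below 0.5-fold. The interval lay wholly past 2-fold for Ghr only, and it did so for 19.9% of all genes in either direction. It lay above 1-fold for Ghr, Igf1 and Socs2 (39.6% of all genes) and below 1-fold for Igfals, Stat5a, Stat5b, Igfbp1, Igfbp3 and Igfbp4 (37.4% of all genes), and for Igfbp2 it included 1-fold. Nothing particular to the 10 genes is read from these counts. The median of the members was -0.25, beside -0.00205 for all genes tested, and the middle 95% of all genes ran from -1.81 to 2.53.

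The ratio between these libraries fell with the GC content of the gene, with a Spearman coefficient of -0.67 across 14995 genes, and the members span that range from 38% GC in Igf1 to 62.1% in Igfbp2. The genes were placed in 10 equally large groups in order of their GC content (GC groups), whose median log2 ratio was 1.44 at the lowest GC content and -0.68 at the highest. The ratio of each of the 10 members is therefore given with the median of the GC group to which it belongs, and the ratios of members and of other named genes are given again after lowess removal of the trends over GC content and over the length of the transcript. After that removal, no member was above 2-fold, where 7.21% of genes were, and Igf1 was the single member below 0.5-fold, where 8.64% of genes were. The members' median was then -0.20, beside -0.00947 for all genes. The part of GC content in the values of single genes was not tested.

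**Figure D2:**
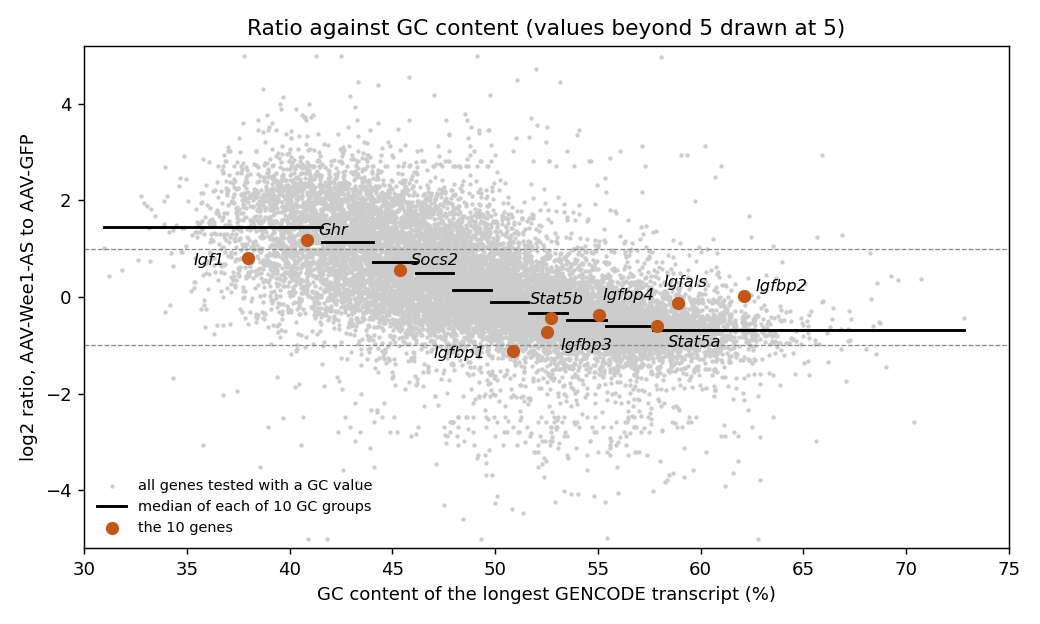
Log2 ratio of the 2 libraries against the GC content (%) of the longest GENCODE transcript for the genes tested (grey), with the median of each of the 10 GC groups (black bars) and the 10 members (orange); dashed lines mark 2-fold. Ghr, Igf1 and Socs2 sit at the low-GC end near or below the black bars, Igfals and Igfbp2 lie above the bar of the group with the most GC, and Igfbp1 lies below its bar.

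Ghr, the receptor of growth hormone, had 11685 estimated counts with AAV-GFP and 21856 with AAV-Wee1-AS. The log2 ratio was 1.18 (95% interval 1.15 to 1.21), against a median of 1.44 for its GC group, and it was -0.17 after the trends were removed. The gene (chr15:3317755-3583352, mm10, minus strand) was divided between 3 RefSeq transcripts, and these did not move together. Variant 1, a long form of 4302 bases that starts at 3583352, had 1242 counts with AAV-GFP and 14815 with AAV-Wee1-AS, a log2 ratio of 3.85 (3.77 to 3.94). Variant 4, a form of 4003 bases with the same 3′ end and a start 1510 bases downstream, had 5961 and 4286 counts, a log2 ratio of -0.20. Variant 2, of 1335 bases, shares the start of variant 1 but ends 9770 bases before the others, and is the short message for the secreted growth hormone-binding protein. It had 4482 and 2755 counts, a log2 ratio of -0.42.

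The higher count of Ghr was thus carried by 1 of its 3 transcripts. Variant 1 took 10.6% of the Ghr counts with AAV-GFP (exact binomial interval 10.1 to 11.2%) and 67.8% with AAV-Wee1-AS (67.2 to 68.4%), while variant 4 went from 51.0% to 19.6% and variant 2 from 38.4% to 12.6%. The transcripts with the long 3′ end, variants 1 and 4, added up to 54.0 TPM with AAV-GFP and 162 TPM with AAV-Wee1-AS. Variant 2 was at 102 and 73.9 TPM. Grouped by start, variants 1 and 2 took 49.0% of the counts with AAV-GFP and 80.4% with AAV-Wee1-AS. The gene's ratio depended on the unit for this reason, with a log2 ratio of 0.57 from FPKM and 0.59 from TPM (each with a pseudocount of 1), under the 2-fold limit in both. The variants overlap over most of their length and the counts are the authors' estimates of how reads divide between them, so the division itself is less certain than the gene's sum.

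**Figure D3:**
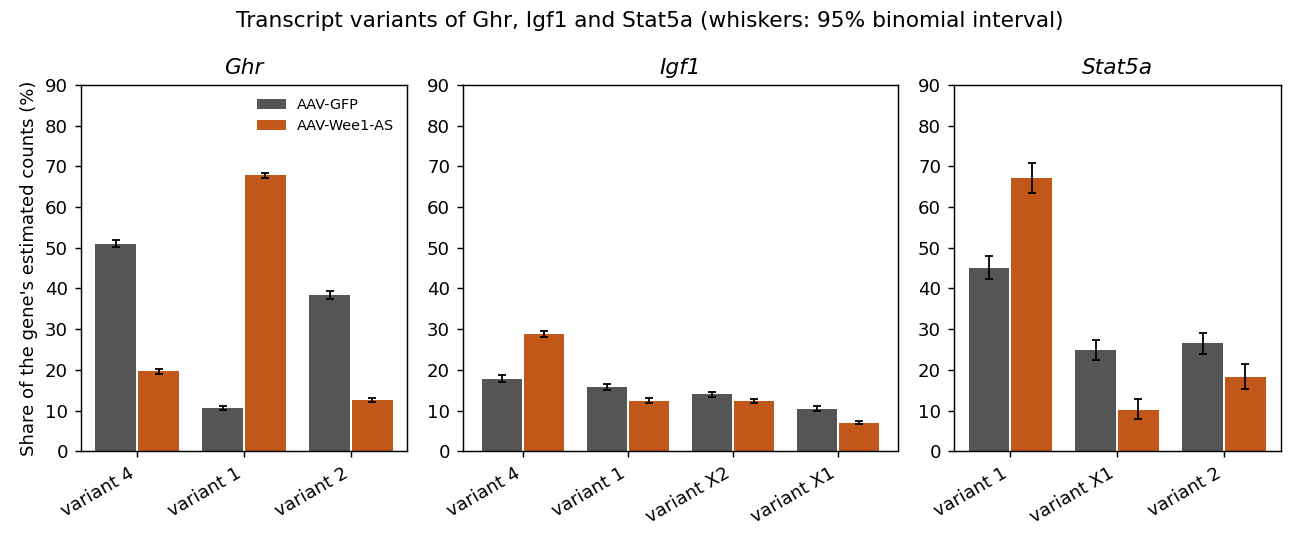
Share of the gene's estimated counts (%) held by each transcript variant with at least 10% in a library, for Ghr, Igf1 and Stat5a (grey AAV-GFP, orange AAV-Wee1-AS, 1 library each); whiskers are exact 95% binomial intervals, which cover counting error only. Variant 1 of Ghr goes from 10.6% to 67.8%, variant 4 of Igf1 from 17.8% to 28.7% and variant 1 of Stat5a from 45.0% to 67.2%.

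Stat5b, the main STAT5 protein of male liver, was lower with AAV-Wee1-AS. It had 3620 counts with AAV-GFP and 2209 with AAV-Wee1-AS, a log2 ratio of -0.43 (-0.51 to -0.36), close to the median of its GC group (-0.32), and -0.39 after the trends were removed. Both major variants were lower, variant 2 with 2610 and 1632 counts (-0.40) and variant 1 with 981 and 570 counts (-0.50), and their shares hardly moved, since variant 2 held 72.1% and 73.9%. The sign of Stat5b was the same under all 13 alternatives of processing.

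Stat5a, its neighbour on chromosome 11 with 347 bases between their outermost transcripts, had 1201 counts with AAV-GFP and 658 with AAV-Wee1-AS. The log2 ratio was -0.59 (-0.73 to -0.45), beside a median of -0.68 for its GC group, and -0.07 after the trends were removed. Its variants were lower to unequal degrees. Variant 1, the largest, had 541 and 442 counts, a log2 ratio of -0.01 with an interval that included 1-fold (-0.20 to 0.17). Variant X1 had 298 and 67 counts (-1.85) and variant 2 had 318 and 120 (-1.12), so variant 1 held 45.0% of the Stat5a counts with AAV-GFP and 67.2% with AAV-Wee1-AS. With the most abundant transcript alone in place of the sum, Stat5a was at 0.01. Stat5b was 2.30 times Stat5a in TPM with AAV-GFP and 2.58 times with AAV-Wee1-AS, and since the 2 genes are close copies, reads that match both could have been given to either.

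Socs2, the STAT5 target that restrains the receptor, was the member with the fewest counts. It had 218 with AAV-GFP and 266 with AAV-Wee1-AS, a log2 ratio of 0.56 whose interval ran from 0.30 to 0.83. Genes of the same GC group had a median of 0.73, and Socs2 was at -0.22 after the trends were removed. Of its 18 transcripts, 9 were listed at 0 in both libraries, and variant 1 held most counts, 171 with AAV-GFP and 243 with AAV-Wee1-AS (78.4% and 91.4%).

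Igf1, the secreted growth factor that the liver supplies to the blood, was higher with AAV-Wee1-AS. It had 9814 counts with AAV-GFP and 14221 with AAV-Wee1-AS, at 42.4 and 72.4 TPM. The log2 ratio was 0.81 (0.78 to 0.85), so Igf1 was 1.76-fold higher. Genes of its GC group, the lowest, had a median of 1.44, and after the trends were removed Igf1 was at -1.02, lower instead of higher. Igf1 messages carry a long AT-rich 3′ end, and the longest GENCODE transcript has 7052 bases. With only the length trend removed, Igf1 was at 0.08.

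The table divided Igf1 (chr10:87858265-87937047, plus strand) between 21 transcripts that all end at the same base. Of the 17 with at least 100 counts in a library, 15 were higher and 2 lower with AAV-Wee1-AS, 7 of them past 2-fold higher and 2 past 2-fold lower. Variant 4 was the most abundant, with 1751 and 4081 counts (log2 ratio 1.50), and its share of the Igf1 counts was 17.8% with AAV-GFP and 28.7% with AAV-Wee1-AS. Variant 1, which starts at the same base and is 52 bases longer, had 1548 and 1772 counts (0.47). Variant X2 had 1371 and 1750 counts (0.63), and variant X1 had 1021 and 997 (0.24).

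The same 52-base difference in length sets apart variants 3 and 5, which share a start 2059 bases further downstream, and they are given here although each is under 10% of the gene. The longer form took 46.9% of the counts of variants 1 and 4 together with AAV-GFP (interval 45.2 to 48.6%) and 30.3% with AAV-Wee1-AS (29.1 to 31.5%). It took 51.9% (47.5 to 56.2%) and 30.7% (27.6 to 34.0%) of the counts of variants 3 and 5. At both starts the shorter form was thus the larger part with AAV-Wee1-AS. Reads over the rest of the message fit all these variants alike, so the shares rest on the few reads at the places where they differ. The antisense gene Igf1os, which overlaps Igf1, had 8 and 12 counts.

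Igfals encodes the acid-labile subunit that joins IGF1 and IGFBP3 in the circulating complex. It had 7914 counts with AAV-GFP and 5963 with AAV-Wee1-AS, a log2 ratio of -0.13 (-0.18 to -0.08). This gene has 58.9% GC, the median of its GC group was -0.68, and after the trends were removed it was at 0.59, higher instead of lower. Variant 1 held 80.2% and 80.9% of the counts. The variants whose start windows held the STAT motif each took under 10%, variant 2 with 370 and 533 counts (log2 ratio 0.80) and variant 3 with 523 and 315 (-0.45), and so went in opposite directions. In TPM, Igfals was 2.64 times Igf1 with AAV-GFP and 1.38 times with AAV-Wee1-AS, and it was 5.29 and 8.03 times Igfbp3.

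Igfbp1, the insulin-suppressed binding protein that withholds IGF1 from its receptor, had the lowest ratio of the 10 genes. It had 1832 counts with AAV-GFP and 697 with AAV-Wee1-AS, at 36.6 and 16.4 TPM. The log2 ratio was -1.11 (-1.24 to -0.99), so Igfbp1 was 2.17-fold lower, and 6.57% of all genes tested were lower still or equal. At 50.9% GC, its GC group had a median of -0.10. After the trends were removed Igfbp1 was at -0.89, and it was negative under all 13 alternatives, from -1.25 to -0.80. Igfbp1 has a single transcript in the table, so no division between variants entered its value.

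Igfbp3, the main carrier of IGF1 in blood, lies 3540 bases from Igfbp1 on chromosome 11 and was also lower. It had 1707 counts with AAV-GFP and 851 with AAV-Wee1-AS, a log2 ratio of -0.73 (-0.85 to -0.61). The median of its GC group was -0.32, and after the trends were removed Igfbp3 was at -0.33. Its sign was negative under all 13 alternatives. In liver, Igfbp3 is known from endothelial and other non-parenchymal cells more than from hepatocytes, and in bulk RNA fewer cells of a type and less RNA per cell cannot be told apart. The 10 endothelial markers had 4 members higher and 6 lower, 1 of them past 2-fold higher. Their summed level was 213 TPM with AAV-GFP and 175 TPM with AAV-Wee1-AS, with none at 0. The 10 markers of Kupffer cells and macrophages had 5 higher and 5 lower (668 and 495 TPM), 3 of them past 2-fold higher. The 10 stellate markers had 3 higher and 7 lower (377 and 287 TPM), 1 of them past 2-fold higher and 2 past 2-fold lower. All 6 lymphocyte markers were lower (6.16 and 3.59 TPM), with a median log2 ratio of -0.63. The part of these cell types in the Igfbp3 value was not tested.

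Igfbp2, which binds IGF2 more tightly than IGF1, was the member closest to equality. It had 5087 counts with AAV-GFP and 4259 with AAV-Wee1-AS, a log2 ratio of 0.02 (-0.04 to 0.08). As the member richest in GC (62.1%) it stood above the median of its GC group (-0.68), and it was at 0.83 after the trends were removed. Igfbp4, the most abundant of the 10, had 112522 and 72177 counts, a log2 ratio of -0.36 (-0.38 to -0.35) beside a median of -0.48 for its GC group, and 0.05 after the trends were removed. The narrow interval of Igfbp4 reflects its depth and says nothing of the spread between mice.

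Igfbp4 made up most of the Igfbp message in both libraries. Over the 7 Igfbp genes, the summed level was 1961 TPM with AAV-GFP and 1459.8 TPM with AAV-Wee1-AS. Igfbp4 held 83.1% and 84.5% of it, Igfbp2 held 5.97% and 7.86%, Igfbp1 held 1.87% and 1.12%, and Igfbp3 held 1.08% and 0.85%. The 3 other binding proteins past the count filter were lower too. Igfbp7 had 5519 and 2441 counts (log2 ratio -0.90, but -0.13 after the trends were removed), and Igfbp5 had 841 and 596 (-0.22, and -0.55 after removal). Igfbp6 had 94 and 19 counts and was the one past 2-fold (-1.93, and -1.13 after removal), and the median of the 3 was -0.90, or -0.55 after the trends were removed. Igfbpl1 was at 0 in both libraries, a count that allows up to 3.

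**Figure D4:**
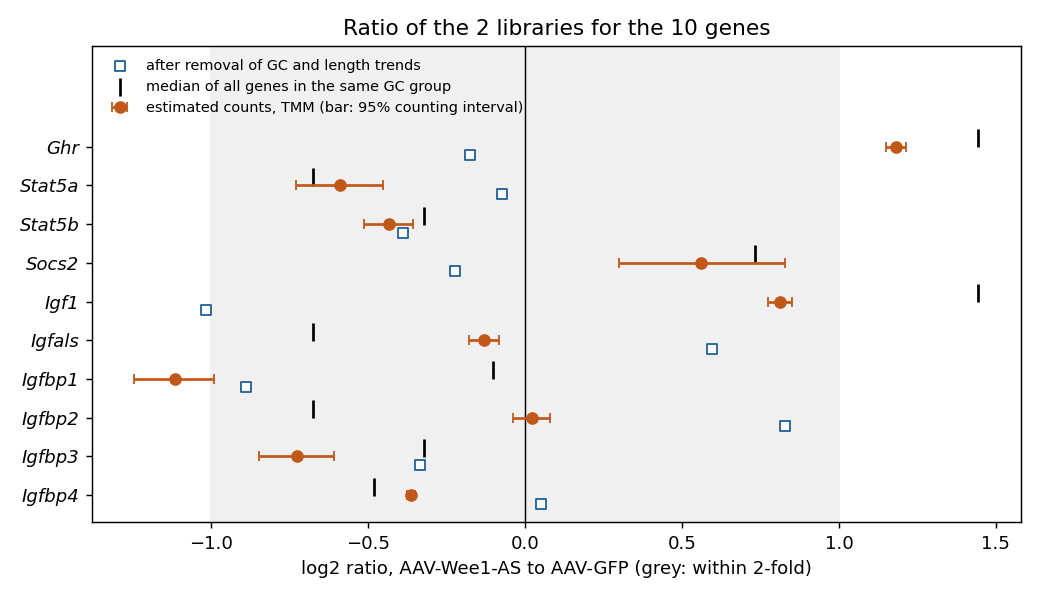
Log2 ratio of the AAV-Wee1-AS to the AAV-GFP library for the 10 genes (orange points, bars the 95% counting interval), with the value after removal of the GC and length trends (open blue squares) and the median of all genes in the same GC group (black ticks); grey marks ratios within 2-fold. Ghr, Igf1, Socs2, Igfals and Igfbp4 change sign between the orange points and the blue squares, and Stat5a, Stat5b, Igfbp1 and Igfbp3 stay negative.

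The other parts of the pathway were read from 10 lists of genes, to be set beside the 22.5% of all genes tested that were above 2-fold and the 8.43% below 0.5-fold. Of 13 genes of growth hormone receptor signalling, 8 were higher and 5 lower with AAV-Wee1-AS, 3 of them past 2-fold higher and none past 2-fold lower, with a median of 0.16 (0.04 after the trends were removed). With only the length trend removed, 3 were higher and 10 lower, with a median of -0.38. Jak2, the kinase bound to the receptor, had 150 and 681 counts, a log2 ratio of 2.44 (2.20 to 2.73), and was at 1.37 after the trends were removed. Irs1, an adaptor of the insulin and IGF1 receptors, had 206 and 555 counts (1.70, and 1.09 after removal). Pik3r1, the regulatory subunit of PI3 kinase, had 1168 and 3231 (1.74, and 0.51 after removal). These 3 genes were higher under all 13 alternatives. Stat3 had 6657 and 5906 counts (0.11, and 0.04 after removal). Prlr, the related prolactin receptor, had 4730 and 4777 counts (0.29, but -1.68 after the trends were removed).

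The relatives of Socs2 did not share 1 direction. Of 7 genes, 4 were higher and 3 lower. Cish, a further STAT5 target, had 1199 and 900 counts (log2 ratio -0.14, and 0.02 after the trends were removed), and Socs3 had 693 and 551 (-0.05, and 0.67 after removal). Socs4 was the one past 2-fold, with 44 and 220 counts (2.54, and 0.74 after removal).

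Among ligands and receptors of the IGF system, Insr, the insulin receptor, had 2262 counts with AAV-GFP and 5250 with AAV-Wee1-AS, a log2 ratio of 1.49 (1.42 to 1.56) that was 0.39 after the trends were removed. Igf2r, the clearance receptor of IGF2, had 2639 and 2221 counts (0.03, and -0.46 after removal). Of the 4 genes of this list past the filter, the intervals of Igf2r (-0.05 to 0.11) and Igf2 (0.06, -0.77 to 0.89) included 1-fold, and with library totals or the upper quartile 2 genes were higher and 2 lower. With only the length trend removed, 1 was higher and 3 lower, with a median of -0.42. Among the proteases of binding proteins and their inhibitors, 2 of 5 genes passed the filter and both were lower. Htra1, a serine protease, had 254 and 85 counts (-1.28, and -0.61 after removal), and Stc2, an inhibitor of pappalysins, had 19 and 8 (-0.83, with an interval of -2.37 to 0.29 that included 1-fold). Of the IGF2 mRNA-binding proteins, Igf2bp2 had 98 and 81 counts (0.00, and -0.28 after removal) and Igf2bp3 had 2 and 2.

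Genes that growth hormone is known to hold high in male mouse liver were mostly higher with AAV-Wee1-AS, on a list drawn up, like the next, with earlier results of these data known. Of the 15 on the list, 12 were higher and 3 lower, 7 of them past 2-fold higher and 0 past 2-fold lower, with a median log2 ratio of 0.60 (0.48 after the trends were removed, with 6 past 2-fold higher and 1 past 2-fold lower). Cyp2d9, counted as higher, was at 0.0045 with an interval that included 1-fold (-0.0099 to 0.0189). With library totals or upper-quartile scaling, 11 were higher and 4 lower, 6 of them past 2-fold higher. Hsd3b5, a steroid dehydrogenase, had 228 counts with AAV-GFP and 2638 with AAV-Wee1-AS, a log2 ratio of 3.80 (3.61 to 4.01). Slco1a1, an organic anion transporter, had 668 and 7028 (3.67). These 2 genes were at 3.72 and 2.27 after the trends were removed. Of the major urinary proteins, the pheromone carriers made by male liver, 3 were past 2-fold, Mup7 with 33214 and 235453 counts (3.10, and 2.18 after removal), Mup1 with 31015 and 127477 (2.32, and 1.31 after removal) and Mup3 with 91071 and 229792 (1.61, but 0.48 after removal). Cyp7b1, an oxysterol hydroxylase, had 2316 and 4623 (1.27, but 0.31 after removal), so it and Mup3 were then within 2-fold. Nudt7 (1.03, but 0.32 after removal) was then within 2-fold too. Selenbp2 (0.46) and Serpina1e (0.60) were past 2-fold higher only after removal, at 1.06 and 1.01. Mup20 had 165379 and 106259 (-0.36) and was the gene past 2-fold lower after removal (-1.48).

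Genes that are known to be higher in female mouse liver were also examined. Of 15 on the list, 11 passed the filter, 2 were higher and 9 lower, 5 of them past 2-fold lower and 0 past 2-fold higher, with a median of -0.85 (-0.95 after the trends were removed). The interval lay below 1-fold for 5 of the 11, beside 37.4% of all genes tested, and it included 1-fold for 4 of the 9 that were lower (Hao2, Cyp3a16, Cux2 and A1bg). Cyp2b13, a cytochrome P450, had 4219 counts with AAV-GFP and 526 with AAV-Wee1-AS, a log2 ratio of -2.72 (-2.86 to -2.59) that was -2.76 after the trends were removed. Cyp2a4 had 2757 and 1034 (-1.14, and -0.95 after removal), and Cyp2b9 had 22631 and 12890 (-0.53, and -0.59 after removal). Cyp3a44 had 330 counts with AAV-GFP and 0 with AAV-Wee1-AS, at least 90.7-fold lower when the 0 is set to a floor of 3 counts in that library. Acot3, an acyl-CoA thioesterase, was higher with 2162 and 3548 counts (0.99, and 0.87 after removal). The Mup, Cyp2a, Cyp2b, Cyp3a and Hsd3b genes have near-identical copies, so the division of reads within each family is uncertain. Xist was at 0 in both libraries, and the 4 Y-linked genes on the list were all past 2-fold higher with AAV-Wee1-AS, a count that was 2 after the trends were removed. Ddx3y had 156 and 899 counts (log2 ratio 2.79, and 1.27 after removal), Uty 52 and 322 (2.86, and 1.24), Kdm5d 148 and 423 (1.78, and 0.33) and Eif2s3y 252 and 974 (2.22, and 0.92). Their part in the values of the sex-biased lists was not tested.

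The medians of the male-biased and female-biased lists kept their signs under all 13 alternatives, but the size of the female-biased median did not hold. It was -0.11 with FPKM and -0.19 with TPM, where 3 genes were past 2-fold lower, and -0.60 with at least 10 counts in both libraries, where 8 genes were left and 2 were past 2-fold lower. Of the 5 genes counted as past 2-fold lower, A1bg had 12 and 4 counts and Cyp3a41b had 16 and 0. With 1 library per group, the spread of these genes between mice of 1 group is not known, and the pulses of growth hormone were not measured here.

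**Figure D5:**
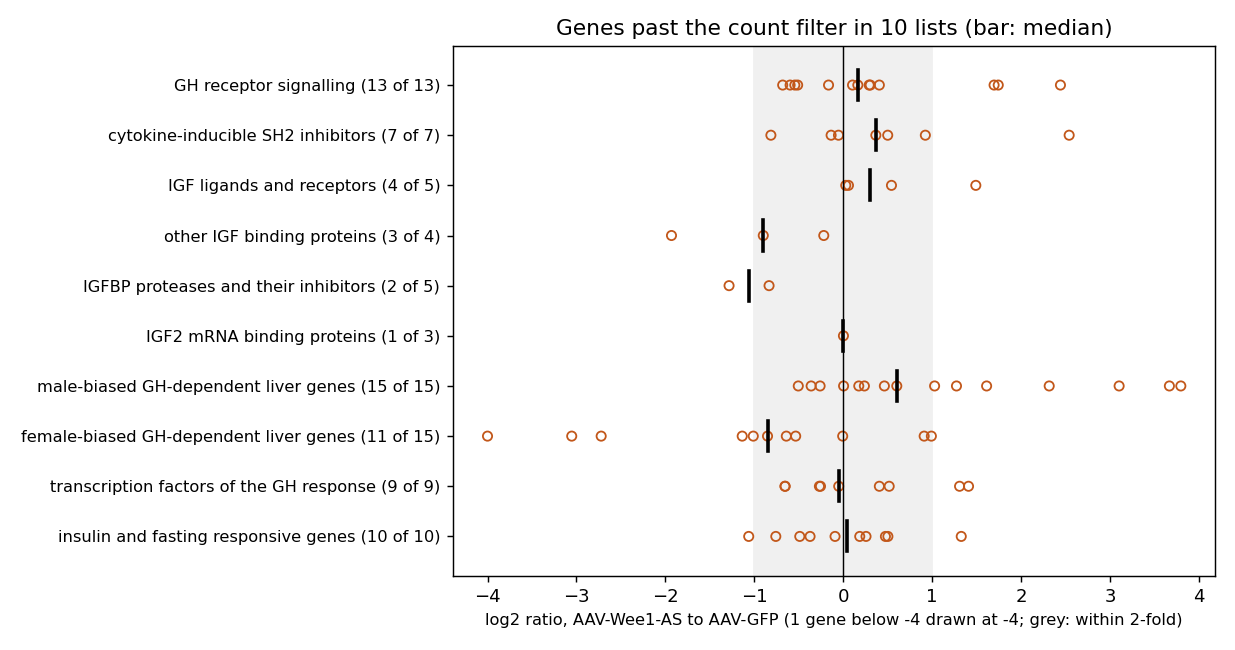
Log2 ratio of the AAV-Wee1-AS to the AAV-GFP library for each gene past the count filter (circles) of the 10 lists, with the list's median (black bar); labels give how many genes passed of how many listed, and grey marks ratios within 2-fold. The male-biased list reaches 3.80 with a median of 0.60, and the female-biased list has a median of -0.85.

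Transcription factors of the growth hormone response were divided. Of 9 genes, 4 were higher and 5 lower, 2 of them past 2-fold higher, with a median of -0.05. After the trends were removed, 6 were higher and 3 lower, 2 of them past 2-fold higher, with a median of 0.21. With FPKM, 0 were past 2-fold. Onecut1, encoding HNF6, had 162 and 358 counts (log2 ratio 1.41, and 1.28 after the trends were removed), and Trim24, a coregulator of nuclear receptors, had 444 and 910 (1.31, and 1.07 after removal). Hnf4a, the hepatocyte master regulator, had 28995 and 23096 (-0.05, but 0.21 after removal), and Cebpa had 29763 and 15617 (-0.65, but 0.10 after removal).

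Genes that respond to insulin and fasting, as Igfbp1 does, were also divided, 5 higher and 5 lower of 10 with a median of 0.05. Of them, 1 was past 2-fold higher and 1 past 2-fold lower. After the trends were removed, 3 were higher and 7 lower, with a median of -0.18 and 0 past 2-fold in either direction. Pck1, the gluconeogenic enzyme that insulin suppresses through FOXO1, had 65881 counts with AAV-GFP and 61831 with AAV-Wee1-AS (log2 ratio 0.19, and 0.62 after removal). Tat, the tyrosine aminotransferase that glucocorticoids induce, had 47329 and 27830 (-0.49, and -0.46 after removal). Ppargc1a, the fasting coactivator, was the gene past 2-fold higher, with 103 and 216 (1.33, but -0.27 after removal). Fgf21 was the gene past 2-fold lower, with 367 and 144 (-1.06, and -0.48 after removal). The lower Igfbp1 was therefore not accompanied by a lower Pck1.

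The tissue label was met by its markers. The 9 hepatocyte markers that were matched added up to 92075 TPM with AAV-GFP and 101818 TPM with AAV-Wee1-AS, 5 higher and 4 lower with a median log2 ratio of 0.00. Of the 5 pituitary markers, 4 were at 0 in both libraries, Gh among them, and Pomc had 7 and 2 counts.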

How the data were processed

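Liver poly-A RNA of 1 AAV-GFP and 1 AAV-Wee1-AS library was sequenced in paired ends from a stranded kit. The authors deposited 1 transcript table (129299 transcripts, mm10), which holds estimated counts that are not normalized, FPKM values and TPM values, and transcript lengths. The submitters' processing notes name Trimmomatic 0.38, HISAT2 2.1.0, SAMtools 1.9 and StringTie 2.1.3b. The estimated counts equal FPKM times length times a constant per library, rounded up (100% within 2 counts plus 0.1%), and may stand for reads or fragments.

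Counts were summed per symbol and scaled by TMM (edgeR 4.0.16, R 4.3.3, factors 1.03 and 0.975). Genes that reached 10 counts in either library were kept, log2 ratios used a prior count of 2, and exact Clopper-Pearson 95% intervals of each ratio were computed from both counts (Python 3.11.15, scipy 1.17.1). A library at or under 3 counts was a floor. The limits of 2-fold and 0.5-fold are those of the study. GC content and length came from the longest GENCODE vM21 transcript (94.6% of genes kept), and trends were removed by lowess (span 0.3, 5 cycles, statsmodels 0.14.6). Steps were tested on simulated data. The 13 alternatives changed scaling, filter, unit, trend or transcript choice.

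The members and lists were chosen with earlier results of these data known. Named were the 10 members, their transcripts with at least 10% of the gene's counts in a library, list genes that reached 100 counts in a library with an interval wholly past 2-fold, and the 2 genes of each list with the most counts. Variants 3 and 5 of Igf1, variants 2 and 3 of Igfals, Igf1os, Igf2, Igfbp6, A1bg, Cyp3a41b, Hao2, Cyp3a16, Cux2, Cyp2d9, Nudt7, Selenbp2, Serpina1e, the check genes Xist, Ddx3y, Uty, Kdm5d, Eif2s3y, Gh and Pomc, and genes at 0 were named outside this rule, after their values were seen. Fgf21 was likewise named outside this rule, after its value was seen. PCR copies are not independent molecules. The series text speaks of 4 liver samples, of which 2 libraries were analysed here.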

Additional observations from a re-analysis of the deposited data

How the results depend on the processing

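Of the 10 genes, Igfbp1, Igfbp3 and Stat5b kept their direction under all 13 alternatives. Removal of the GC content and length trends turned Ghr to -0.17, Igf1 to -1.02, Igfals to 0.59, Igfbp4 to 0.0503 and Socs2 to -0.22, and the most abundant transcript alone turned Stat5a to 0.0099. The cause was not tested. Igfbp2, whose interval includes 1-fold, ran from -0.11 to 0.83. The number of members above 2-fold, 1 as reported, was 0 with FPKM, TPM, removal of both trends or removal of the length trend, and 2 with NM transcripts only or the most abundant transcript only. The number below 0.5-fold was 0 with the length trend removed, and the number past 2-fold in either direction was 1 with FPKM, TPM or both trends removed, and 0 with the length trend removed. The median of the members stayed between -0.38 and -0.04. Upper-quartile scaling moved the median of all genes to -0.13, and every ratio by about as much. Genes above 2-fold were 6.49% of those tested with FPKM and 7.21% with both trends removed. No paired analysis was possible because each group is 1 library, and no replicate could be left out. Depth limits Socs2 most, whose interval spans 0.30 to 0.83.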
